A study of Homo sapiens with 8 samples.

Results

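The 10 genes described here, HSPA5, HSP90B1, SDF2L1, MANF, DNAJC3, DNAJB9, HERPUD1, EDEM1, SEL1L and XBP1, belong to the unfolded protein response (UPR) of the endoplasmic reticulum (ER). They were taken by symbol from the 15597 genes of the deposited tables, and all 10 were found. The 8 RNA-seq libraries came from SUDHL-4, a human lymphoma cell line that grew out of a germinal-centre type of diffuse large B-cell lymphoma. There were 4 groups of 2 libraries: wild-type control cells in DMSO, the solvent, control cells in 5 nM elesclomol (ES), FDX1-overexpressing cells (FDX1-OE) in DMSO, and FDX1-OE cells in 5 nM ES, all for 48 h. FDX1 is ferredoxin 1, a mitochondrial iron-sulfur protein, and elesclomol is a small molecule that carries copper into cells. The series asks how added FDX1 changes gene expression under elesclomol. The labels name neither the promoter nor the vector that carries FDX1, nor whether the FDX1-OE cells are 1 clone, nor whether control cells hold an empty vector.

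The ER folds the proteins that a cell secretes or places in its membranes. When unfolded proteins build up there, the sensors ERN1 (IRE1), EIF2AK3 (PERK) and ATF6 start the UPR: ATF6 and spliced XBP1 raise the transcription of chaperones and degradation factors, and PERK slows translation and raises ATF4. HSPA5 (BiP) is the main ER chaperone of the HSP70 family, and its mRNA level is the usual readout of the response. B-lineage cells use the XBP1 branch when they become plasma cells.

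All values are FPKM, which are reads scaled to the length of the gene and to the total of the library, so levels can be set side by side between genes. The reads behind them came to between 33387958 and 35833270 per library. FDX1 lay between 21.3 and 25.6 FPKM in the 4 control libraries and between 69.9 and 84.8 FPKM in the 4 FDX1-OE libraries, as labelled. The germinal-centre B-cell markers PAX5, BCL6 and MME were above 1 FPKM in each group. Of 10 plasma cell markers 5 were below 1 FPKM in each group, among them PRDM1, IRF4 and SDC1. The summed level of that list rose with ES from between 776.0 and 813.9 to between 1030 and 1082 FPKM in control cells, and from between 747.3 and 782.5 to between 873.6 and 960.2 FPKM in FDX1-OE cells, mostly through JCHAIN. Of 10 myeloid markers 7 were found. Their sum was between 4.03 and 4.30 FPKM in control cells in DMSO. In FDX1-OE cells in ES it was between 36.7 and 39.7 FPKM, through CD68 and FCER1G. The other 5, CD14, LYZ, CSF1R, ITGAM and MPO, were at most at a mean of 0.190 FPKM in any group. That highest mean was LYZ in control cells in ES, against 0 FPKM in control cells in DMSO. T and NK cell markers, of which 6 of 10 were found, summed to at most 8.57 FPKM, mostly through CD3E (at most 8.32 FPKM). Epithelial and stromal markers summed to at most 15.8 FPKM, mostly through DCN (at most 15.4 FPKM).

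ATF6 and XBP1 are known to bind short elements in promoters of UPR genes, and 5 of the 10 genes held an exact match to an element searched for here in the window from 250 bases before to 50 bases after the RefSeq start (GRCh38.p14; 11 windows, XBP1 having 2 starts). Matches were sought on both strands for the ER stress response element ERSE (CCAAT and CCACG with any 9 bases between them), for ERSE-II (ATTGG, any base, then CCACG), which shares the CCACG end with ERSE, for the XBP1-binding UPRE (TGACGTGG) and for the ATF4-binding element CARE (TGATGNAA). ERSE was in the windows of HSPA5, XBP1 and HSP90B1, the last with 2 matches, and in 27 of all 34796 windows of the RefSeq table (0.0776%). ERSE-II was in those of HERPUD1 and SDF2L1 and in 19 of all windows (0.0546%). CARE was in that of HERPUD1 and in 1264 of all windows (3.63%), and UPRE was in none of the 11 windows and in 255 of all (0.733%). These elements were defined on genes of this kind, so the matches describe the genes and say nothing of binding in these cells. The stretches are shown because the genes that share an element parted in the data below, HERPUD1 rising and SDF2L1 falling with ES. The capitals mark the matches, the strand is that of the gene, and the authors' reads were placed on another build (hg19), so the coordinates hold for GRCh38.p14 alone.
HSPA5, chr9:125241344-125241493, minus strand: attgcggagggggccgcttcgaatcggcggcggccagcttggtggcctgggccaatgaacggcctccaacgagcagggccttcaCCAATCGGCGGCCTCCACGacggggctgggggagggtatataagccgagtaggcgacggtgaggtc
XBP1, chr22:28800598-28800626, minus strand: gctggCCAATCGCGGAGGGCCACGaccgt
HSP90B1, chr12:103930211-103930239, plus strand: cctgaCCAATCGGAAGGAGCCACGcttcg
HSP90B1, chr12:103930316-103930344, plus strand: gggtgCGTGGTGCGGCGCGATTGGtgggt
HERPUD1, chr16:56931892-56932041, plus strand: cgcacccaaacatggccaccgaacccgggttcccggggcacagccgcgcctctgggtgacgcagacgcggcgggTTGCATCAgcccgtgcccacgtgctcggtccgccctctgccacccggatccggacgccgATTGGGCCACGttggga
SDF2L1, chr22:21642052-21642201, plus strand: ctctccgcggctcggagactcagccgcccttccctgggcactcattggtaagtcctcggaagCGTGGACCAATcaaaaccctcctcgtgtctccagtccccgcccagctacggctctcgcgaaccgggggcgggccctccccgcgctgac
In HERPUD1 the CARE match (TTGCATCA, read on the opposite strand) lies upstream of the ERSE-II match.

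The levels of the 10 genes spanned a wide range. Over all 8 libraries HSPA5 had the highest mean (214.3 FPKM, rank 246 of the 9805 genes tested), followed by HSP90B1 (182.4 FPKM), MANF (144.9 FPKM), SDF2L1 (77.8 FPKM), XBP1 (26.9 FPKM), HERPUD1 (24.99 FPKM), EDEM1 (12.8 FPKM), SEL1L (10.3 FPKM), DNAJC3 (7.01 FPKM) and DNAJB9 (4.56 FPKM, rank 7282). The library ranges of HSPA5 and HSP90B1, of XBP1 and HERPUD1, and of EDEM1 and SEL1L overlapped over the 8 libraries of all groups. Within each library HSPA5 was above HSP90B1 and EDEM1 above SEL1L in 8 of 8, while XBP1 and HERPUD1 changed places between groups. No gene of the 10 spanned more than 1.81 times from its lowest to its highest library, which was XBP1. The reads ran from 340 for DNAJB9, where counting error alone is 5.42%, to 32236 for HSPA5.

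**Figure D1:**
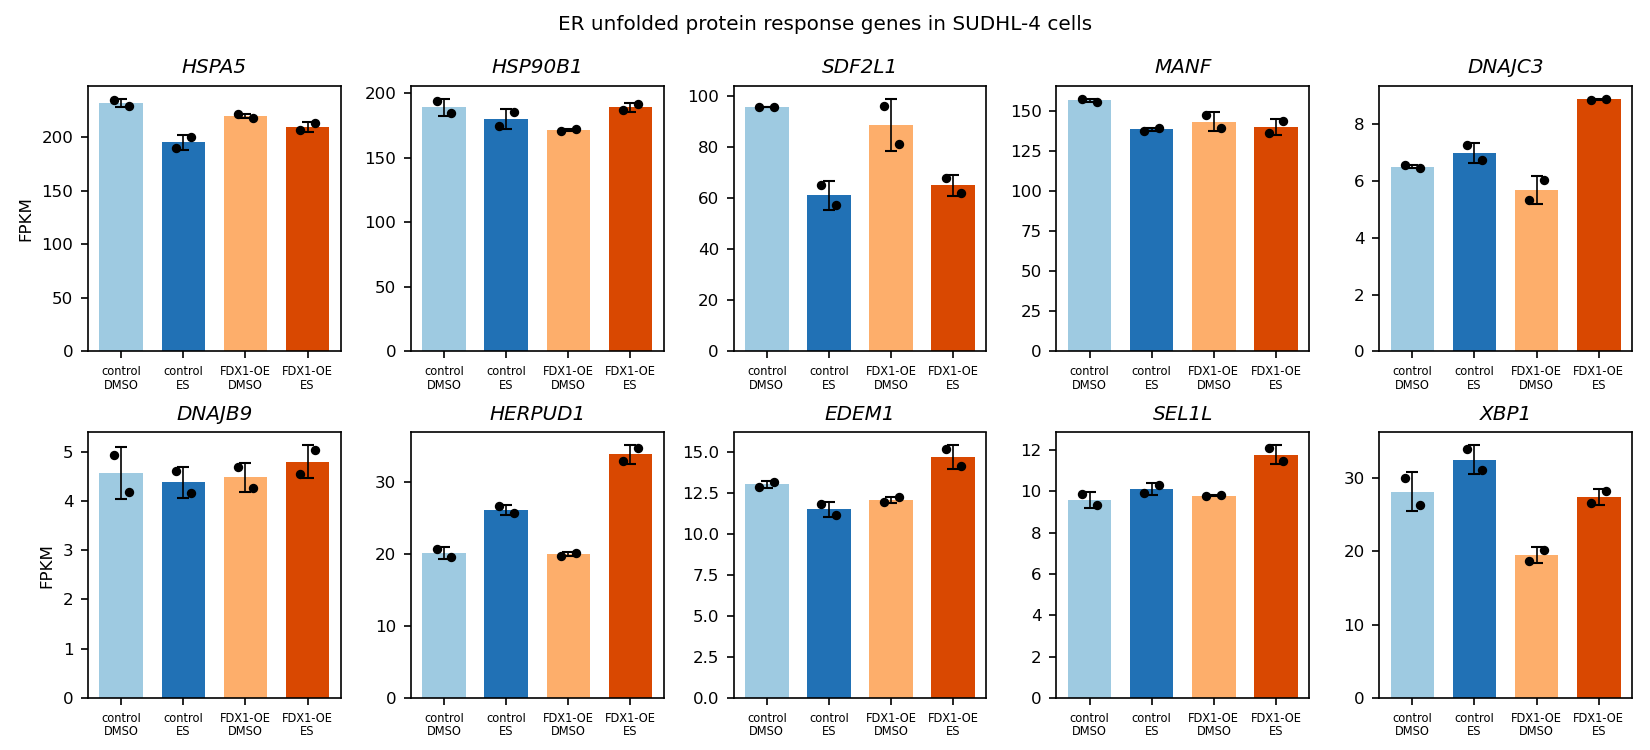
FPKM of the 10 genes (y axes from 0, one panel per gene) in the 4 groups; bars are means, points the 2 libraries and error bars the SD. HERPUD1 is highest in FDX1-OE cells in ES (33.8 FPKM), SDF2L1 is lower in both ES groups than in both DMSO groups, and XBP1 is lowest in FDX1-OE cells in DMSO (19.5 FPKM).

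Elesclomol in control cells shows the drug's effect without added FDX1. Differences were tested with limma on log2(FPKM + 1) and called at a Benjamini-Hochberg adjusted p below 0.05 over all 9805 genes, and changes are given on that scale. HERPUD1 rose, HSPA5, SDF2L1 and MANF fell, and the other 6 did not pass. Among all genes tested 25.5% were called higher and 12.9% lower, beside 1 of 10 higher and 3 of 10 lower here. The share higher was thus below that over all genes and the share lower above it, on few genes and without a test. The median log2 change of the 10 genes was -0.06, against 0.06 over all genes. In FDX1-OE cells the balance was the other way: HERPUD1, DNAJC3, XBP1, EDEM1, SEL1L and HSP90B1 rose with ES, SDF2L1 fell, and 3 did not pass, beside 37.0% called higher and 19.2% called lower of all genes. Their median was 0.19, against 0.09 over all genes.

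These balances depended on how the libraries were scaled. FPKM divides by the library total; scaling by the median ratio of all genes to their mean over the libraries (RLE) instead shifted all genes, at their median, by -0.08 log2 units in control cells and by -0.13 in FDX1-OE cells. With RLE scaling 1 of the 10 rose and 5 fell in control cells, and 3 rose (HERPUD1, DNAJC3 and XBP1) and 3 fell (SDF2L1, HSPA5 and MANF) in FDX1-OE cells. Over all genes RLE scaling gave 1694 higher and 2124 lower in control cells in place of 2498 and 1269, and 2382 and 3105 in FDX1-OE cells in place of 3632 and 1878. HERPUD1 higher and SDF2L1 lower held under both scalings in both genotypes.

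**Figure D2:**
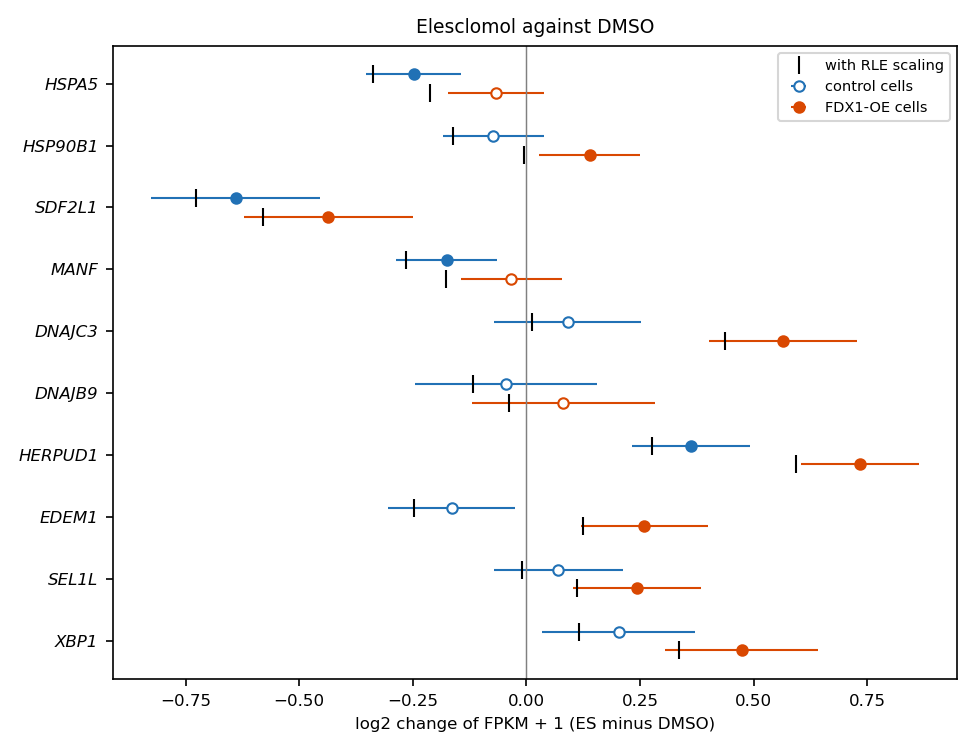
Change with ES on the log2(FPKM + 1) scale (x axis) for each gene in control cells (blue) and FDX1-OE cells (orange), with 95% confidence intervals from limma; filled points passed at adjusted p below 0.05, and black ticks give the value with RLE scaling. HERPUD1 lies to the right of 0 and SDF2L1 to the left in both genotypes, while the ticks sit to the left of all points.

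Among the chaperones, HSPA5 was at 235.0 and 229.1 FPKM in control cells in DMSO and at 190.4 and 200.1 FPKM in control cells in ES. Both ES libraries lay below both DMSO libraries, and the fall was to 0.842 times (log2 change -0.25, SE 0.05, adjusted p = 0.00258). In FDX1-OE cells it was at 221.5 and 218.5 FPKM in DMSO and at 206.5 and 213.4 FPKM in ES. The ES libraries were again the lower ones, but this difference did not pass (log2 change -0.07, adjusted p = 0.248) except with RLE scaling (-0.21, adjusted p = 0.00365). In neither genotype, then, was the level of this usual UPR readout called higher with ES.

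HSP90B1 (GRP94), the ER member of the HSP90 family, was at 193.9 and 184.6 FPKM in control cells in DMSO and at 174.3 and 185.5 FPKM in ES, and these overlapped (log2 change -0.07, adjusted p = 0.276). With RLE scaling its fall in control cells passed (-0.16, adjusted p = 0.0294). In FDX1-OE cells it went from 170.9 and 172.2 FPKM in DMSO to 186.6 and 191.4 FPKM in ES, 1.10 times higher (log2 change 0.14, SE 0.05, adjusted p = 0.0364). The groups did not overlap, but the call was lost without any one of these 4 libraries (adjusted p between 0.0641 and 0.144) and with RLE scaling (log2 change -0.0047, adjusted p = 0.946). Exons of C12orf73 and TTC41P lie on the opposite strand of HSP90B1 in GENCODE 29, and whether the counting used strand is not given in the sources used here.

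SDF2L1, an ER protein that keeps substrates of BiP from clumping, fell in both genotypes. In control cells it was at 95.8 FPKM in both DMSO libraries and at 65.2 and 57.3 FPKM in ES. The level in ES was 0.642 times that in DMSO (adjusted p = 0.00034, log2 change -0.64, SE 0.08). FDX1-OE cells held 96.1 and 81.5 FPKM in DMSO and 68.1 and 62.3 FPKM in ES, 0.739 times (log2 change -0.44, adjusted p = 0.00132). The 4 ES libraries were all below the 4 DMSO libraries, and both calls held under each of the 16 alternatives tried.

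MANF, an ER-resident and secreted factor that protects cells from ER stress, was at 157.6 and 156.1 FPKM in control cells in DMSO and at 138.0 and 139.5 FPKM in ES. The groups did not overlap, and the fall to 0.885 times passed (log2 change -0.18, adjusted p = 0.0189), though not without any one of these 4 libraries (adjusted p between 0.0552 and 0.0825). In FDX1-OE cells it was at 147.7 and 139.5 FPKM in DMSO and at 136.6 and 143.9 FPKM in ES, which overlapped (log2 change -0.03, adjusted p = 0.595; with RLE scaling -0.18, adjusted p = 0.0126). Of all pairs among the 10 genes, MANF and HSPA5 had the smallest difference in pattern, a root mean square of 0.0504 log2 units over the 8 libraries after each gene was centred on its control DMSO mean.

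DNAJC3 and DNAJB9 are co-chaperones of the DNAJ family, which hand clients to BiP. DNAJC3 (P58IPK), which also restrains PERK, was at 6.54 and 6.46 FPKM in control cells in DMSO and at 7.24 and 6.74 FPKM in ES. Its ES libraries were the higher ones, but the change did not pass (log2 change 0.09, adjusted p = 0.353). In FDX1-OE cells it went from 5.33 and 6.02 FPKM in DMSO to 8.85 and 8.88 FPKM in ES, 1.48 times higher (log2 change 0.56, SE 0.07, adjusted p = 0.000104). DNAJB9 (ERdj4), which represses the sensor IRE1, was between 4.16 and 5.04 FPKM in all 8 libraries, and its groups overlapped in each of the 4 comparisons. Its log2 change with ES was -0.04 in control cells (95% interval -0.25 to 0.16) and 0.08 in FDX1-OE cells (-0.12 to 0.28). DNAJB9 shares exon sequence with THAP5 and PNPLA8 on the opposite strand.

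HERPUD1, EDEM1 and SEL1L act in ER-associated degradation (ERAD), which returns misfolded proteins to the cytosol for the proteasome. HERPUD1 (HERP), a membrane protein of the ERAD ubiquitin ligase complex, was at 20.7 and 19.5 FPKM in control cells in DMSO and at 26.6 and 25.6 FPKM in ES, 1.28 times higher (log2 change 0.36, SE 0.06, adjusted p = 0.00104). In FDX1-OE cells it went from 19.7 and 20.1 FPKM in DMSO to 32.9 and 34.7 FPKM in ES, 1.66 times higher (log2 change 0.73, adjusted p = 4.47e-06). The 4 DMSO libraries formed 1 narrow range, the control ES libraries stood above it, and the FDX1-OE ES libraries stood above those. Both calls held under each of the 16 alternatives tried.

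EDEM1, a lectin-like protein that picks misfolded glycoproteins for degradation, lay lower with ES in control cells and rose in FDX1-OE cells. Control cells held 12.9 and 13.2 FPKM in DMSO and 11.8 and 11.2 FPKM in ES, a fall that did not pass (log2 change -0.16, adjusted p = 0.0624) except with RLE scaling (-0.25, adjusted p = 0.0109) and with voom on recovered reads (-0.18, adjusted p = 0.0354). In FDX1-OE cells EDEM1 went from 11.96 and 12.2 FPKM in DMSO to 15.2 and 14.2 FPKM in ES, 1.20 times higher (log2 change 0.26, SE 0.06, adjusted p = 0.00543; with RLE scaling 0.12, adjusted p = 0.116). Libraries did not overlap in either genotype. The antisense RNA AC026202.3 overlaps exons of EDEM1.

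SEL1L, the scaffold of the HRD1 ubiquitin ligase complex, was at 9.87 and 9.32 FPKM in control cells in DMSO and at 9.93 and 10.3 FPKM in ES (log2 change 0.07, adjusted p = 0.409). FDX1-OE cells held 9.78 and 9.82 FPKM in DMSO and 12.1 and 11.5 FPKM in ES, 1.18 times higher (log2 change 0.24, adjusted p = 0.0081). This call was lost without FDX1-OE ES replicate 1 (adjusted p = 0.0577) and with RLE scaling (log2 change 0.11, adjusted p = 0.168).

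XBP1, the transcription factor whose mRNA IRE1 splices, was the only gene of the 10 called lower in FDX1-OE than in control cells in DMSO. The FPKM adds spliced and unspliced mRNA together, so these values say nothing of splicing. In DMSO it was at 30.0 and 26.2 FPKM in control cells and at 18.7 and 20.2 FPKM in FDX1-OE cells, 0.704 times (log2 change -0.51, SE 0.08, adjusted p = 0.015). It held with RLE scaling (adjusted p = 0.0117), but not when control DMSO replicate 1 (0.181) or FDX1-OE DMSO replicate 1 (0.0837) was left out, nor without the filter on low values (0.273). XBP1 has a pseudogene, XBP1P1, and HSP90B1 has HSP90B2P and HSP90B3P, with which reads could be shared.

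With ES, XBP1 reached 33.9 and 31.1 FPKM in control cells and 26.6 and 28.2 FPKM in FDX1-OE cells. The rise in FDX1-OE cells was 1.39 times (log2 change 0.47, adjusted p = 0.00042), from a lower start into the range of control cells in DMSO. In control cells the difference missed the threshold (adjusted p = 0.0571, log2 change 0.20), and it passed with voom (0.0425), at a mean of at least 5 FPKM (0.049) and without control DMSO replicate 1 (0.0302). In ES, XBP1 was still lower in FDX1-OE than in control cells by the test (0.849 times, log2 change -0.24, adjusted p = 0.0499), a call at the threshold that was kept in 6 of 16 alternatives. Beside XBP1, 4 of the 5 plasma cell markers tested (JCHAIN, CD27, CD38 and TNFRSF17) rose with ES in each genotype, where 25.5% of all genes were called higher in control and 37.0% in FDX1-OE cells, and PRDM1 was listed at 0 in control cells in ES and at a mean of at most 0.0102 FPKM elsewhere. The marker calls are given on FPKM alone, without RLE scaling. The part of these markers in the result was not tested.

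FDX1-OE against control cells in DMSO compares the genotypes without the drug. The labels do not give the vector or the clone, so their part cannot be told apart from that of FDX1. Few genes of the whole table passed: 0.428% were called higher and 0.0816% lower, and XBP1 was 1 of the 8 lower genes. None of the other 9 UPR genes passed in limma on FPKM or with voom; at an unadjusted p below 0.05 DNAJC3 (log2 change -0.17), HSP90B1 (-0.14) and MANF (-0.13) were lower. Both FDX1-OE libraries lay below both control libraries for 6 of the 10 genes (HSPA5, HSP90B1, XBP1, DNAJC3, EDEM1 and MANF) and above them for 0, where 18.1% of all genes lay below and 18.2% above. The median log2 change was -0.11, against 0.00065 over all genes.

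In ES more of the 10 genes differed between the genotypes. HERPUD1 (1.28 times), EDEM1 (1.25 times), DNAJC3 (1.24 times) and SEL1L (1.15 times) were higher in FDX1-OE than in control cells, XBP1 was lower, and 5 did not pass; of all genes 13.6% were called higher and 7.78% lower. HERPUD1 (log2 change 0.36, SE 0.06, adjusted p = 0.00254) passed in all 16 alternatives. The calls of EDEM1 (adjusted p = 0.00596) and DNAJC3 (0.0156) were lost without control ES replicate 2 (0.0549 and 0.115), and DNAJC3 also without either FDX1-OE ES library (0.0729 and 0.0618) and EDEM1 without FDX1-OE ES replicate 1 (0.052). SEL1L (adjusted p = 0.0477) was kept in 4 of 16. The comparisons between genotypes use the same libraries as the comparisons with ES, so they are not separate evidence.

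**Figure D3:**
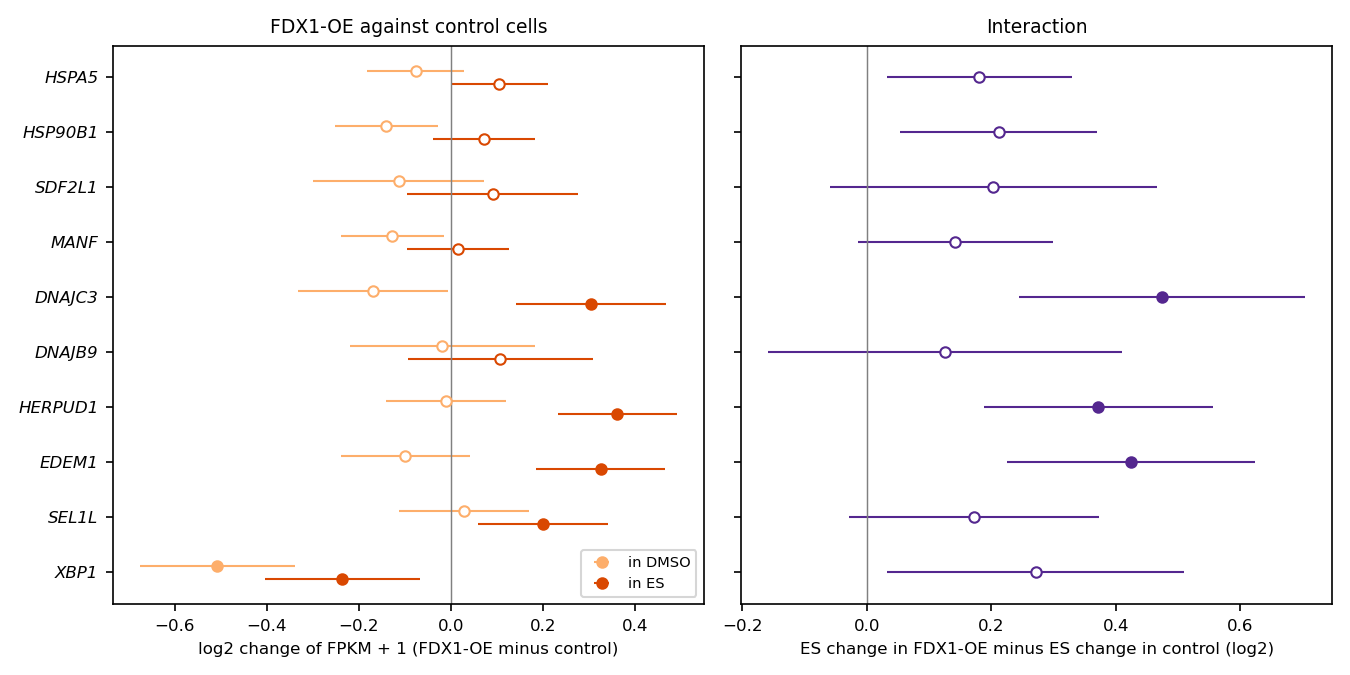
Left, FDX1-OE minus control on the log2(FPKM + 1) scale in DMSO (light) and in ES (dark); right, the interaction, which is the ES change in FDX1-OE cells minus that in control cells, both with 95% confidence intervals and filled where adjusted p was below 0.05. XBP1 lies furthest left in DMSO (-0.51), and DNAJC3, EDEM1 and HERPUD1 are the filled points of the interaction.

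The interaction tests whether ES acted differently in FDX1-OE cells. DNAJC3 (difference 0.47, 95% interval 0.24 to 0.70, adjusted p = 0.0347), EDEM1 (0.42, 0.23 to 0.62, adjusted p = 0.0307) and HERPUD1 (0.37, 0.19 to 0.56, adjusted p = 0.0372) had the more positive response in FDX1-OE cells. Over all genes 3.25% were called in that direction and 1.05% in the other. The other 7 did not pass, among them XBP1 (0.27, 0.03 to 0.51, adjusted p = 0.174) and SDF2L1 (0.20, -0.06 to 0.47, adjusted p = 0.338). The median estimate of the 10 was 0.21 against 0.03 over all genes, and 0.15 against -0.02 with RLE scaling. The interaction also holds the difference between the genotypes in DMSO. For FDX1-OE against control the median of the 10 was -0.11 in DMSO and 0.11 in ES, against 0.00065 and 0.03 over all genes. The calls of DNAJC3, EDEM1 and HERPUD1 were close to the threshold. None of the 3 passed without the filter on low values, and each was lost in most of the fits that left out 1 library.

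Ratios between genes of 1 library do not depend on how libraries are scaled. The ratio of HERPUD1 to HSPA5 was 0.0881 and 0.0851 in control cells in DMSO and 0.0891 and 0.0921 in FDX1-OE cells in DMSO. It was 0.140 and 0.128 in control cells in ES and 0.159 and 0.163 in FDX1-OE cells in ES. All 4 ES libraries stood above all 4 DMSO libraries, and the FDX1-OE ones above the control ones in ES. The ES libraries also stood above the DMSO libraries for DNAJC3 to HSPA5 (at least 0.0337 against at most 0.0282) and SEL1L to HSPA5 (0.0516 against 0.0450). The same held for HSP90B1 and XBP1 to HSPA5, and EDEM1, MANF and DNAJB9 overlapped. HSPA5 itself was lower in the ES libraries of each genotype, so the rise of a ratio is not particular to HERPUD1. The ratio of SDF2L1 to HSPA5 went the other way, from between 0.373 and 0.434 in DMSO to between 0.286 and 0.342 in ES. For XBP1 to HSPA5 the lowest values were 0.0844 and 0.0926 in FDX1-OE cells in DMSO, against 0.128 and 0.115 in control cells in DMSO, 0.178 and 0.155 in control cells in ES and 0.129 and 0.132 in FDX1-OE cells in ES. MANF to HSPA5 stayed between 0.638 and 0.725 throughout. These genes thus changed unequally within the libraries.

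By the measure of pattern used above, the genes most like HSPA5 outside the 10 were PURB (0.0292 log2 units over 8 libraries), PRDX6 (0.0357) and JPT1 (0.036). Those most like XBP1 were LAPTM5 (0.0875), PACRGL (0.106) and SMAD1 (0.131). SMAD1 was low, with group means between 0.414 and 1.15 FPKM, so its likeness rests in part on the added 1. LAPTM5, a lysosomal membrane protein of blood cells, was at 313.3 FPKM in control cells in DMSO, 233.9 in FDX1-OE cells in DMSO, 382.8 in control cells in ES and 313.4 in FDX1-OE cells in ES.

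Of the 6 UPR sensors and ATF6 proteases, 4 rose with ES in control cells and 3 in FDX1-OE cells, and the others did not pass, beside 25.5% and 37.0% of all genes called higher. Their median log2 changes were 0.27 and 0.23, against 0.06 and 0.09 over all genes. ERN1 was low, at 0.406 FPKM in control cells and 0.483 FPKM in FDX1-OE cells in DMSO. ES raised it to 0.810 FPKM in control cells (log2 change 0.36, adjusted p = 0.0167) and to 1.62 FPKM in FDX1-OE cells (0.82, adjusted p = 6.92e-05). EIF2AK3 rose from 13.7 to 17.3 FPKM and from 13.9 to 17.7 FPKM, and ATF6B, a relative of ATF6, from 31.0 to 41.2 FPKM and from 33.6 to 41.7 FPKM. ATF6 rose in control cells (log2 change 0.22, adjusted p = 0.0375) and did not pass in FDX1-OE cells (0.16, adjusted p = 0.0822). The proteases MBTPS1 and MBTPS2, which release ATF6 from the membrane, did not pass in either. With RLE scaling the calls of ATF6 in control cells (adjusted p = 0.147) and of ATF6B in FDX1-OE cells (0.0558) were lost, which left 3 and 2. Of all 9805 genes 1694 and 2382 were called higher with that scaling.

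The wider ER lists were mixed. Over all genes 25.5% were called higher and 12.9% lower in control cells, and 37.0% and 19.2% in FDX1-OE cells. With RLE scaling the numbers over all 9805 genes were 1694 higher and 2124 lower, and 2382 and 3105. Of 21 further ER chaperones and folding enzymes tested, 1 rose and 4 fell with ES in control cells, and 6 rose and 4 fell in FDX1-OE cells (0 and 7, and 3 and 8, with RLE scaling). Their medians were -0.03 and 0.06. FKBP11, an ER prolyl isomerase, fell to 0.669 times in control cells and to 0.595 times in FDX1-OE cells (log2 change -0.75, SE 0.06, adjusted p = 5.59e-06), while SDF2, the relative of SDF2L1, and SIL1, the nucleotide exchange factor of BiP, rose 1.34 and 1.33 times in FDX1-OE cells. Of 25 further ERAD genes 8 rose and 4 fell in control cells and 11 rose and 2 fell in FDX1-OE cells (5 and 5, and 5 and 8, with RLE scaling; medians 0.05 and 0.13). The shares called higher were near those over all genes. HERPUD2, a paralog of HERPUD1, rose 1.61 times in FDX1-OE cells, the lectin OS9 1.34 times and DERL3, a part of the ERAD channel, 1.28 times. VCP, the ATPase that pulls proteins from the ER membrane, was at 0.773 times its DMSO level in control cells.

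Genes of protein entry into the ER and glycosylation changed in few cases, with 5 of 25 risen and 2 fallen in control cells (25.5% and 12.9% over all genes) and 2 risen and 3 fallen in FDX1-OE cells (37.0% and 19.2%) (2 and 6, and 0 and 9, with RLE scaling; medians 0.01 and 0.01). SEC62 (0.77 times) and SSR4 (0.787 times), parts of the translocation machinery, fell in FDX1-OE cells. SEC11A, a subunit of the signal peptidase, rose 1.27 times there, but not with RLE scaling (adjusted p = 0.0801), and SEC61G rose 1.34 times in control cells. For ER to Golgi transport 4 of 17 rose and 13 did not pass in control cells, and 5 rose and 5 fell in FDX1-OE cells (2 and 3, and 1 and 9, with RLE scaling). The share that rose in control cells was near that over all genes, and the share in FDX1-OE cells was below it. With RLE scaling 1694 of all 9805 genes rose and 2124 fell in control cells, and 2382 and 3105 in FDX1-OE cells. ARFGAP3, which acts on the coat of transport vesicles, rose 1.43 times in control and 1.56 times in FDX1-OE cells. KDELR1, the receptor that returns BiP to the ER, was at 0.823 times in FDX1-OE cells, and the SNARE SEC22B rose 1.18 times, but with RLE scaling this no longer passed (adjusted p = 0.236).

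In the PERK and ATF4 branch, 12 of 12 genes tested, of the 14 in the list, rose with ES in FDX1-OE cells. Of all genes 37.0% were called higher there. In control cells 8 rose and 1 fell, beside 25.5% and 12.9% of all genes. With RLE scaling 9 rose and 0 fell in FDX1-OE cells, and 7 rose and 2 fell in control cells. Of all 9805 genes that scaling gave 2382 higher in FDX1-OE and 1694 in control cells. The median log2 change of the list was 0.83 in FDX1-OE and 0.36 in control cells. ATF5 rose 5.57 times in FDX1-OE cells and 3.14 times in control cells, CHAC1 3.19 times and ATF3 3.04 times in FDX1-OE cells; the last 2 started below 1 FPKM, so their folds rest on the added 1. The list was written with earlier results of these data known. These are mRNA levels, and whether PERK acted on the genes of this list was not tested.

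**Figure D4:**
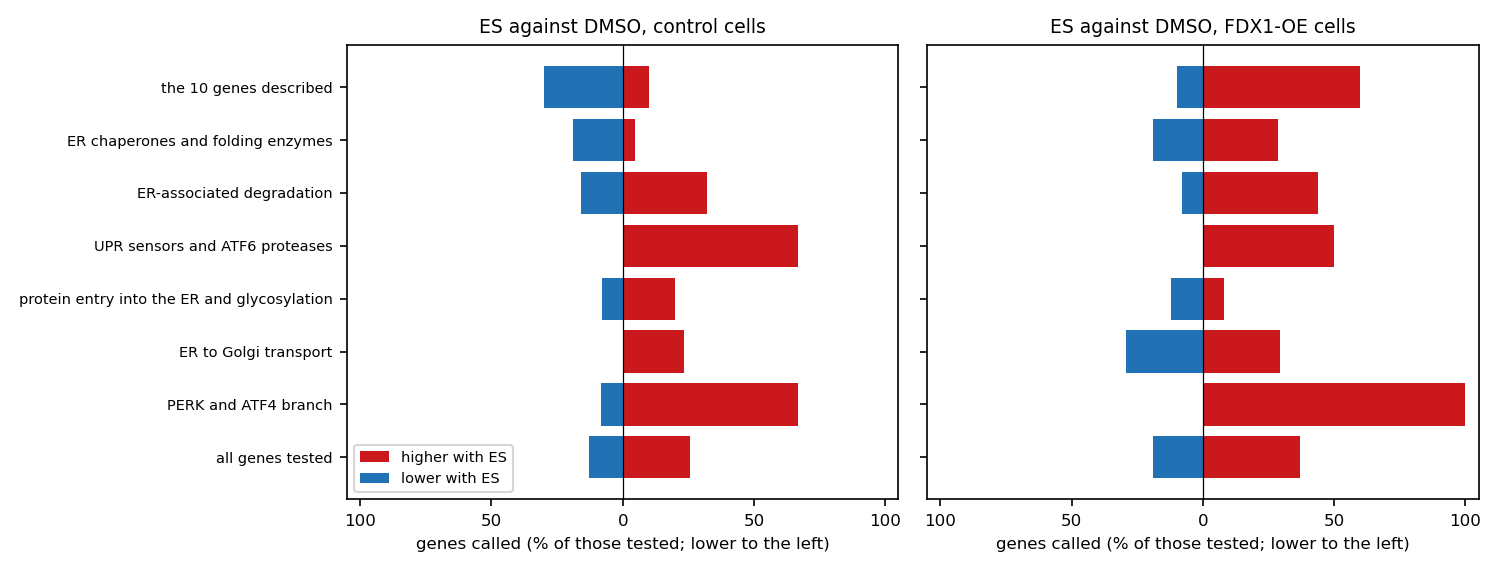
Share of the tested genes of each list called higher (red, right) or lower (blue, left) with ES, in percent, in control cells (left panel) and FDX1-OE cells (right panel), with all 9805 genes tested in the bottom bar. In the PERK and ATF4 branch all 12 genes are to the right in FDX1-OE cells; the ER chaperones and folding enzymes reach no further right than the bar of all genes in either panel.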

How the data were processed

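The authors deposited FPKM for 15597 genes in each of 8 libraries. The file headers state no unit; the unit was read from the values. HTSeq, HISAT2, R 3.2.0 and hg19 are named, per the submitters' processing notes. What each did, the annotation and the strand setting were not given in the sources used here. FPKM steps gave whole reads for 100% of genes within 0.02 read, used here for depth and for voom. The confidence intervals are limma's and rest on the spread between libraries.

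limma 3.58.1 (R 4.3.3) was fitted to log2(FPKM + 1) of all 8 libraries with 4 group means (4 residual and 6.62 prior degrees of freedom) and a mean trend, two-sided, for 9805 genes (a minimum of 1 FPKM in 2 or more libraries), with Benjamini-Hochberg adjustment. Fold changes on FPKM + 1 understate changes of low genes. The labels do not say that replicates were separate cultures, so p-values cover only the spread among these libraries, which may be technical. With 2 libraries against 2, the smallest p of an exact permutation test is 0.33, so none was run. On simulated data for ES in control cells (9587 genes), the fit called 46 of 50 genes changed 1.3 times and 49 of 50 changed 1.5 times, with 9 false calls. There the spread was set by hand, and only genes with more than 50 reads on average were changed. Far fewer genes were changed than were called in the real comparison, so the figures are not its error rate.

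The members and lists were chosen with earlier results of these data known. Named genes of a list are the called ones with the largest change: up to 3 in FDX1-OE cells and 1 in control cells with ES; all sensors and the 10 members are named. Marker lists covered germinal-centre B cells, plasma cells, T and NK cells, myeloid cells, and epithelial and stromal cells. Promoters are RefSeq sequences (GRCh38.p14), matched by symbol; exon overlaps are from GENCODE 29. Alternatives were another pseudocount (0.1), no filter, a mean of at least 5 FPKM, RLE scaling, only the libraries compared, the replicate number as a block, no mean trend, voom on recovered reads, and leaving out each library. Replicates of a group differed by more than sampling noise in each group.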

Additional observations from a re-analysis of the deposited data

Results flagged for a closer look

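The response to ES differed between the genotypes, by the interaction term of the limma fit, for 3 of the 10 genes. The ES change of DNAJC3 in FDX1-OE cells exceeded that in control cells by 0.47 on the log2 scale (adjusted p = 0.0347, and between 0.00901 and 0.131 over the alternatives). For EDEM1 the difference was 0.42 (adjusted p = 0.0307, and between 0.00749 and 0.118). For HERPUD1 it was 0.37 (adjusted p = 0.0372, and between 0.0238 and 0.131). EDEM1 was lower with ES in both control libraries and higher in both FDX1-OE libraries, whereas DNAJC3 and HERPUD1 were higher with ES in all 4 ES libraries than in the DMSO libraries of the same genotype.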

How the results depend on the processing

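Of 785 values of the 10 genes under the alternatives, 696 kept their direction and their side of the threshold, 65 lost a call, 8 gained one and 16 changed sign, 1 of these among the called values (HSP90B1). Of 20 calls 8 held under every alternative tried. The numbers of genes called that moved by more than 1.5 times were these. ES in control cells had 2 higher at a mean of at least 5 FPKM and with voom, and 5 lower with RLE scaling. ES in FDX1-OE cells had 3 higher and 3 lower with RLE scaling. FDX1-OE against control in DMSO had 0 lower without the filter. In ES it had 0 lower with a pseudocount of 0.1, without the filter, with the replicate block and without the mean trend. The interaction had 0 higher without the filter. Leaving out 1 library gave between 1 and 2 higher and between 2 and 3 lower for ES in control cells, between 4 and 6 higher and 1 lower for ES in FDX1-OE cells, between 0 and 1 lower in DMSO, between 1 and 3 higher and between 0 and 1 lower in ES, and between 0 and 3 higher for the interaction. The lone library of a group was then assumed to vary like the other groups. What caused the moves under any of the alternatives was not tested.

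The values that changed sign were small. With RLE scaling SEL1L was at -0.011 for ES in control cells, HSP90B1 at -0.0047 and DNAJB9 at -0.038 for ES in FDX1-OE cells, and MANF at -0.038 for FDX1-OE against control in ES. Leaving out 1 library, DNAJB9 ranged from -0.14 to 0.052 for ES in control cells, and MANF from -0.074 to 0.0079 for ES in FDX1-OE cells. For FDX1-OE against control in DMSO HERPUD1 ranged from -0.052 to 0.030, DNAJB9 from -0.12 to 0.078, SEL1L from -0.0097 to 0.065 and SDF2L1 from -0.23 to 0.0051. In ES SDF2L1 ranged from -0.00086 to 0.18 and MANF from -0.022 to 0.053. DNAJB9 was not tested at a mean of at least 5 FPKM, and the interaction has no fit on 4 libraries.

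The titles' replicate numbers are not said to pair libraries, and the deviations of same-numbered libraries correlated between -0.18 and 0.18 between groups. With the replicate block the calls were 1 higher and 3 lower, 6 higher and 1 lower, 0 higher and 1 lower, 3 higher and 0 lower, and 3 higher and 0 lower in the 5 comparisons in the order of the report. Over all genes, the counts called in the interaction, 319 higher and 103 lower, were 158 and 18 without the filter and 165 and 57 with a pseudocount of 0.1. They were 251 and 274 with RLE scaling, 249 and 29 without the mean trend and 400 and 241 with voom. FDX1-OE against control in DMSO had 2 higher and 0 lower without the filter in place of 42 and 8, 71 higher with voom and 14 lower with only the 4 libraries compared. In ES it had 978 higher and 1273 lower with RLE scaling in place of 1331 and 763.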

Other observations

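Genes of glycosylation and of protein entry into the ER were among those called lower in FDX1-OE than in control cells in ES. The list leaned lower in DMSO too. Of the 25 genes of protein entry into the ER and glycosylation 5 were lower and 20 did not pass in limma, beside 7.78% of all genes called lower. They were DAD1 (log2 change -0.31, adjusted p = 0.00502), RPN2 (-0.20) and STT3A (-0.19), which are subunits of the enzyme that adds glycans, and SEC63 (-0.25) and SSR2 (-0.20) of the translocation machinery, all named after their values were seen. With RLE scaling 8 of the 25 were lower, where 1273 of all 9805 genes were. In DMSO 0 of the 25 were called, but the median log2 change of the list was -0.08 there, against -0.09 in ES. The interaction called 0 of the 25, with a median of 0.02 against 0.03 over all genes.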
